A study of Mus musculus with 9 samples.

Results

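A set of 10 mRNAs that a mouse cell makes inside its mitochondria was followed in whole mandibles of WT mice and of mice labelled FcγRIIB-/-. They are the 10 rows of the count table whose symbol is ND1, ND2, ND4, ND5, ND6, CYTB, COX1, COX2, COX3 or ATP6, out of 27179 genes, and all 10 had enough reads to be tested. The rule names symbols and sets no limit on a value, so no member lies just inside or outside of it. The set was chosen by the counts of these genes in the same WT and FcγRIIB-/- libraries, and the differences of the 10 mRNAs are therefore given as a description, with no p-values of their own.

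The mitochondrial genome is a small circle of DNA present in many copies per cell. It encodes 13 proteins, all of them subunits of the oxidative phosphorylation system, together with the ribosomal and transfer RNAs needed to translate them. ND proteins belong to complex I, which takes electrons from NADH, CYTB to complex III, COX proteins to complex IV, which reduces oxygen, and ATP6 to complex V, the ATP synthase. The circle is transcribed as long RNAs from both strands and cut into single mRNAs, most of which receive a short poly(A) tail. ND6 is the only one of these mRNAs encoded on the light strand. All other subunits of these complexes, and every protein that copies or transcribes mitochondrial DNA, are encoded in the nucleus. Tissues with a high demand for ATP, such as muscle, hold many mitochondria.

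The study compared 5 WT mice with 4 mice labelled FcγRIIB-/-, all C57BL/6 males 6 months old. FcγRIIB is the inhibitory Fc receptor, and mice without it serve as a model of lupus. The mandible of every mouse was pulverized whole, teeth included, and its poly(A) RNA was read as single reads of 75 bases. The knockout mice were obtained from another laboratory, mice were housed at the authors' university, and tail DNA was used for genotyping. For its blood analysis the paper calls the controls littermates. The deposited values are raw counts per gene, with totals between 24158960 and 26787359 in WT and between 21453880 and 28991631 in the other group. The labels give no batch. *Fcgr2b*, the targeted gene, had 442 to 954 counts in WT and 562 to 757 under the FcγRIIB-/- label (log2 fold change 0.21 with a standard error of 0.20, edgeR adjusted p = 0.442). Its count was not lower under the knockout label, so every direction below is between libraries by their labels. CPM values are counts scaled by the TMM-normalized size of the library, each ± is the SD between mice, and each adjusted p comes from the quasi-likelihood test of edgeR with Benjamini-Hochberg adjustment over all tested genes.

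All 10 mitochondrial mRNAs were higher in the libraries labelled FcγRIIB-/-. Together they made up 4.31% ± 0.815 (SD, n = 5) of all counts in WT and 8.21% ± 2.25 (SD, n = 4) under the FcγRIIB-/- label. By mouse, the share was 5.18, 3.41, 3.48, 4.87 and 4.63% in WT replicates 1 to 5, and 6.73, 8.25, 6.48 and 11.4% in replicates 1 to 4 labelled FcγRIIB-/-. The groups did not overlap, and replicate 4 labelled FcγRIIB-/- stood highest. In edgeR's fit on the whole table all 10 passed an adjusted p of 0.05 as higher, where 14.0% of the 16329 tested genes did so. In 9 of the 10, the exception being *COX3*, every library labelled FcγRIIB-/- lay above every WT library, as was the case for 12.1% of all tested genes. Among all tested genes, 2289 were higher and 3144 lower, and 1309 and 3781 when libraries were scaled by their totals alone. The 10 mRNAs had a median log2 fold change of 1.10, against 0.01 for all tested genes. Since the members were chosen with this contrast in view, these counts describe them and support nothing further. In bulk tissue, more mitochondria-rich cells and more mitochondrial RNA per cell cannot be told apart.

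**Figure D1:**
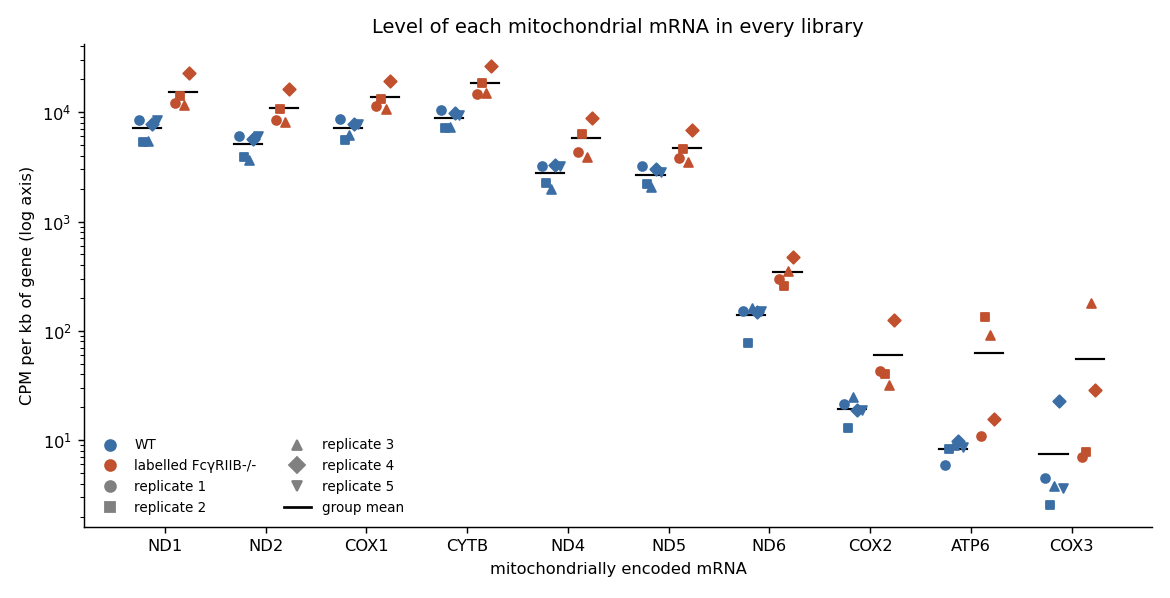
Level of the 10 mitochondrial mRNAs in CPM per kb of gene, on a log axis, with 1 point per library (shape gives the replicate), WT in blue, libraries labelled FcγRIIB-/- in orange and a bar for each group mean. ND1, ND2, COX1, CYTB, ND4 and ND5 lie highest, ND6 between 76.9 and 476, and COX2, ATP6 and COX3 at most at 179.

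The most abundant 6 mRNAs carried nearly all of these counts. *CYTB*, *COX1*, *ND1*, *ND2*, *ND5* and *ND4* together held between 99.38 and 99.83% of the counts of the 10 in every library. Divided by gene length, the mean WT levels were 8880 CPM per kb for *CYTB*, 7210 for *COX1*, 7110 for *ND1*, 5080 for *ND2*, 2790 for *ND4* and 2680 for *ND5*. The neighbours *COX1* and *ND1*, and *ND4* and *ND5*, lay closer to each other than the spread between WT mice. *ND6* followed at 139 CPM per kb, and *COX2*, *ATP6* and *COX3* stood at 19.3, 8.35 and 7.44. The levels of these last 3 mRNAs were thus far below that of *COX1*, which is cut from the same precursor RNA.

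Of the 10 mRNAs, these 3 have an identical annotated nuclear copy over nearly their whole length. Each mitochondrial mRNA was divided into all its windows of 75 bases, the read length, and each window was looked for on both strands of 141730 nuclear transcripts of GENCODE M21 (GRCm38, the build called mm10 by the authors). An identical copy existed for 604 of the 607 windows of *ATP6* (99.5%), 607 of the 610 of *COX2* (99.5%) and 709 of the 710 of *COX3* (99.9%). Their copies are *Gm10925*, *Gm28661* and *Gm28437*, 3 of 7 annotated pseudogenes in a row on the minus strand at chr1:24611535-24616197. The same row holds 100% identical copies of bases 1 to 876 of *ND4* (*Gm28439*) and of bases 1 to 294 of *ND4L* (*Gm10222*), besides the end of *COX1* (*Gm29216*) and *ND3* (*Gm28438*). Windows with a copy made up 61.5% of *ND4* and 39.8% of *COX1*, but 5.71% of *ND2*, 1.66% of *ND5* and 0% of *ND1*, *ND6* and *CYTB*.

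The stretch from base 101 to base 175 of each of the 3 genes is shown with its copy. These are the members whose counted levels were low and uneven. All letters are alike, so none is in capitals. In mm10, the mitochondrial stretches are chrM:8027-8101, chrM:7113-7187 and chrM:8707-8781 on the plus strand, and their copies are chr1:24614477-24614551, chr1:24615391-24615465 and chr1:24613797-24613871 on the minus strand.
ATP6: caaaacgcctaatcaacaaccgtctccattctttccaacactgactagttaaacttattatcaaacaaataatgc
Gm10925: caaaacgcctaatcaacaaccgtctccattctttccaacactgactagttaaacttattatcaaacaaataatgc
COX2: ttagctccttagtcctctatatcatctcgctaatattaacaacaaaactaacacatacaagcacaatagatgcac
Gm28661: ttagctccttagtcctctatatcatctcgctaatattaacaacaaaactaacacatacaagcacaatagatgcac
COX3: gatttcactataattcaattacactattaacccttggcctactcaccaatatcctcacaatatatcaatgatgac
Gm28437: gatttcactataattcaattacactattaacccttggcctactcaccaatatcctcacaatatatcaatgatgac

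*CYTB*, an abundant member, is shown for contrast. Its nearest annotated nuclear transcript was *Gm11410* on chromosome 4, with 92.91% identity over 1142 aligned bases. In the stretch at chrM:14246-14320 and the matching chr4:80004090-80004164, both on the plus strand, 7 of 75 bases differed, and these are in capitals.
CYTB: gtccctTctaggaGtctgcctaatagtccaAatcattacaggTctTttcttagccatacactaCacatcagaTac
Gm11410: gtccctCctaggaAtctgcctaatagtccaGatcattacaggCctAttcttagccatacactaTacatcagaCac

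None of the 12 nuclear genes that share a window is a row of the count table. How reads that fit more than 1 place were counted is not given in the sources used here, and the part of the nuclear copies in the low levels was not tested. The 3 mitochondrial mRNAs outside the set were low too. *ND3*, with copies of 97.8% of its windows, had between 6 and 107 counts per library, and *ND4L*, with 98.7%, had between 0 and 10. *ATP8*, which lies after *COX2* and overlaps the start of *ATP6*, had at most 4 counts, and none of its windows has an identical annotated copy. The copies of *COX2* and *ATP6* are neighbours in the row on chromosome 1. The unannotated sequence between them was not searched, so whether *ATP8* has a copy there is not known. Both mitochondrial rRNAs had no copy of any window. Counted per 1000 windows without a copy, the WT levels were 12600 CPM for *COX1*, 9490 for *CYTB* and 7700 for *ND1*. *ND4* was at 7660, *ND2* at 5800, *ND5* at 2840 and *ND6* at 162 CPM. This scaling assumes that no read from a window with a copy was counted, which was not tested.

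**Figure D2:**
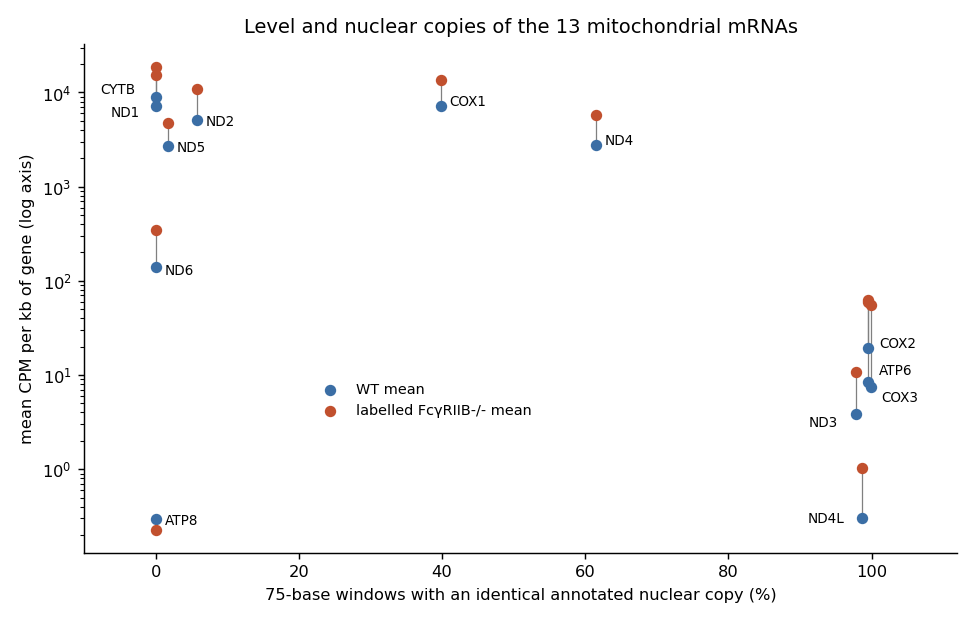
Mean level of the 13 mitochondrial mRNAs in CPM per kb (log axis) against the percentage of their 75-base windows with an identical annotated nuclear copy, with WT in blue and libraries labelled FcγRIIB-/- in orange, joined per gene. COX2, ATP6, COX3, ND3 and ND4L, at 97.8% or above, all have WT means of 19.3 or below, and of the other 8 only ATP8 lies as low. Unannotated sequence, such as that between the copies of COX2 and ATP6, was not searched, so the 0% of ATP8 covers annotated copies only.

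Each of the 6 abundant mRNAs was 1.75- to 2.15-fold higher. *CYTB* (chrM:14145-15288), the cytochrome b subunit of complex III, was at 12000, 8240, 8450, 11200 and 10900 CPM in WT replicates 1 to 5 and at 17000, 21000, 17000 and 30300 CPM in replicates 1 to 4 labelled FcγRIIB-/-. WT replicates 2 and 3 were low and replicate 4 labelled FcγRIIB-/- was high, and the groups were apart. The means were 10100 ± 1700 (SD, n = 5) and 21300 ± 6270 (SD, n = 4) CPM, which is 1.07 on the log2 scale (standard error 0.21). *COX1* (chrM:5328-6872), the catalytic subunit of complex IV, was at 13300, 8620, 9640, 12000 and 12100 CPM in WT and at 17800, 20500, 16700 and 29700 CPM under the FcγRIIB-/- label. Its log2 fold change was 0.93 (standard error 0.20), and the same libraries were low and high as for *CYTB*.

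The 4 abundant complex I mRNAs were higher as well, without overlap between the groups. *ND1* (chrM:2751-3707), part of the membrane arm of complex I, was at 8150, 5070, 5230, 7480 and 8070 CPM in WT and at 11600, 13600, 11100 and 21700 CPM under the FcγRIIB-/- label, a log2 fold change of 1.09 (standard error 0.24). Of the others in the membrane arm, *ND2* (chrM:3914-4951) ranged from 3810 to 6350 CPM in WT and from 8390 to 17000 under the FcγRIIB-/- label, with a log2 fold change of 1.10. *ND4* (chrM:10167-11544) ranged from 2740 to 4520 and from 5350 to 12100 CPM, with a log2 fold change of 1.06. *ND5* (chrM:11742-13565) had the smallest difference of the 10, a log2 fold change of 0.81 (standard error 0.21), with 3780 to 5930 CPM in WT and 6400 to 12500 under the FcγRIIB-/- label. With each mouse left out in turn, all 6 abundant mRNAs still passed as higher. Their lowest log2 fold changes, down to 0.57 for *ND5*, came without replicate 4 labelled FcγRIIB-/-.

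The proportions among the 6 mRNAs were steady. *COX1* held between 25.6 and 28.6% of their summed counts in WT and between 24.1 and 26.1% under the FcγRIIB-/- label, and *CYTB* between 23.1 and 25.1% and between 24.6 and 26.2%. The exception was *ND5*, which held between 11.1 and 12.2% in WT and between 9.85 and 10.2% under the FcγRIIB-/- label, without overlap. This share was not tested. After the genotype means were removed, Pearson's r of log2 CPM over the 9 libraries was between 0.939 and 0.993 for the 15 pairs of these mRNAs. The points of each pair share their library, its depth and its scaling factor, and the genes share a precursor RNA. For each of the 6, the most similar of all other tested genes was another of the 6, as for *ND1* and *ND2* (r = 0.993).

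*ND6* (chrM:13552-14070) is a complex I subunit encoded on the light strand (minus in the annotation). It was at a low level in these poly(A) libraries and had the largest log2 fold change of the 3 members without a shared window. Since not every mitochondrial mRNA receives a tail, its level among all RNA is not known. It was at 79.4, 39.9, 84.3, 77.1 and 78.9 CPM in WT and at 153, 134, 182 and 247 CPM under the FcγRIIB-/- label. WT replicate 2 was the lowest, and the groups were apart. The log2 fold change was 1.31 (standard error 0.22). *ND6* did not follow the 6 abundant mRNAs closely over the libraries, with r between 0.412 for *ND4* and 0.661 for *COX1*. In log2 CPM the genes most like it were *Bpifb3* (r = 0.965) and *Ccdc61* (r = 0.952). These are the highest of 16329 tested genes over only 9 libraries, and no test was made of them.

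*COX2*, *ATP6* and *COX3* each stood out in different libraries. *COX2* (chrM:7013-7696), which carries the copper centre that accepts electrons from cytochrome c, was at 14.6, 8.83, 16.9, 12.8 and 13 CPM in WT and at 29.3, 27.5, 21.7 and 86.3 CPM under the FcγRIIB-/- label. Replicate 4 labelled FcγRIIB-/- was far above its group, and without it the log2 fold change fell from 1.63 (standard error 0.37) to 0.99. *ATP6* (chrM:7927-8607), subunit a of the ATP synthase and part of its proton channel, was at 4.02, 5.66, 6.21, 6.68 and 5.86 CPM in WT, and at 7.32, 91.9, 62.7 and 10.5 CPM under the FcγRIIB-/- label. Replicates 2 and 3 were high, on 1989 and 1481 counts, while replicates 1 and 4, on 209 and 208 counts, were just above WT. The log2 fold change was 2.92 (standard error 0.65), and 2.24 without replicate 2 labelled FcγRIIB-/-.

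*COX3* (chrM:8607-9390), the remaining mitochondrial subunit of complex IV, showed the most uneven pattern. It was at 3.55, 2.01, 3.01, 17.7 and 2.89 CPM in WT and at 5.54, 6.05, 140 and 22.4 CPM under the FcγRIIB-/- label. Replicate 3 labelled FcγRIIB-/- had 3315 counts, where WT replicates 1, 2, 3 and 5 had between 50 and 98. WT replicate 4, with 483 counts, lay above replicates 1 and 2 labelled FcγRIIB-/-, so the groups overlapped. The log2 fold change was 2.89 (standard error 0.99), and it was 0.94 without replicate 3 labelled FcγRIIB-/- and 3.94 without WT replicate 4. Of the 9 fits with a mouse left out, *COX3* passed in 3. In *CYTB*, by contrast, replicate 3 labelled FcγRIIB-/- had the same 17000 CPM as replicate 1.

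Over the 9 libraries, *ATP6* and *COX3* did not move with the abundant mRNAs. After the genotype means were removed, r of *ATP6* with the 6 ran from -0.31 to -0.167 and that of *COX3* from -0.02 to 0.11, and r between *ATP6* and *COX3* was 0.286. *COX2*, which was highest in the library with the most mitochondrial RNA, had r between 0.649 and 0.801. Outside the mitochondrial genome, the profiles most like these 3 were those of *Adss* for *ATP6* (r = 0.981), *Arap3* for *COX2* (r = 0.976) and *Mob4* for *COX3* (r = 0.964). As for *ND6*, these are the highest of 16329 tested genes over only 9 libraries, and no test was made of them. The 3 mRNAs took up between 0.0441 and 0.0797% of the counts of the 10 in WT and up to 0.344% under the FcγRIIB-/- label, so that the sum over the 10 does not rest on them.

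**Figure D3:**
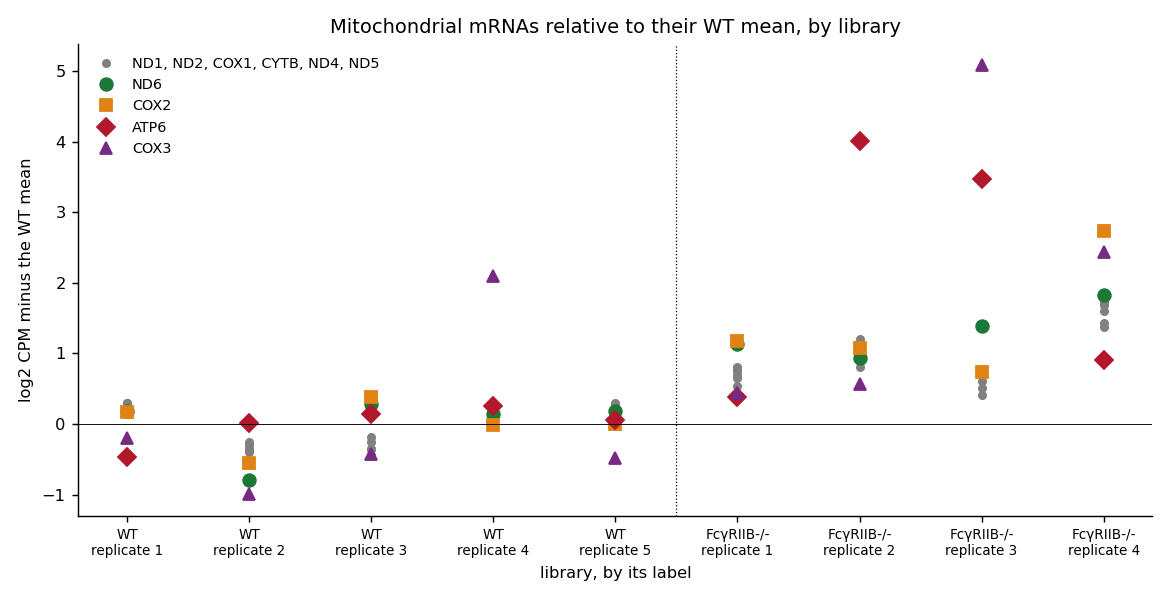
log2 CPM of each mitochondrial mRNA minus its WT mean, for each of the 9 libraries. The 6 abundant mRNAs (grey) stay together in every library, while ATP6 is high in replicates 2 and 3 labelled FcγRIIB-/-, COX3 in replicates 3 and 4 and in WT replicate 4, and COX2 in replicate 4.

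Counts of the mitochondrial rRNAs, which the rule did not include, were higher too in these poly(A) libraries. They come from the same genome and the same libraries as the members, so they are no separate evidence. *mt-Rnr1* averaged 802 CPM ± 178 (SD, n = 5) in WT mice and 1910 CPM ± 362 (SD, n = 4) under the FcγRIIB-/- label, which is 1.25 on the log2 scale (standard error 0.18, edgeR adjusted p = 0.00113). For *mt-Rnr2* the difference was 1.21 on the log2 scale (standard error 0.19, edgeR adjusted p = 0.0014). *ND3* had a log2 fold change of 1.46 (edgeR adjusted p = 0.0269) on low counts, with WT replicate 5 at 0.234 CPM and the other WT mice between 0.923 and 2.28. *ATP8* and *ND4L* were not tested.

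Nuclear genes for the same complexes were also higher, with a smaller median log2 fold change. Of 84 nuclear oxidative phosphorylation subunits tested, 74 passed as higher and 0 as lower in edgeR's quasi-likelihood test (78 higher and 0 lower at an unadjusted p under 0.05, and 77 and 0 in DESeq2). Their median log2 fold change was 0.59. By complex, the calls were 35 of 36 for complex I, 8 of 9 for complex III, 15 of 17 for complex IV and 14 of 18 for complex V, with medians between 0.56 and 0.62. Complex II, which has no mitochondrially encoded subunit, had 2 of 4 called and a median of 0.16. Its *Sdhb*, the iron-sulphur subunit, differed by 0.59 on the log2 scale (standard error 0.11, edgeR adjusted p = 0.00303) and *Sdhd*, a membrane anchor, by 0.22 (edgeR adjusted p = 0.0469).

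Among the nuclear subunits the largest log2 fold change was that of *Cox6a2*, the form of complex IV subunit 6a found in heart and skeletal muscle. It averaged 94.9 CPM ± 23.6 (SD, n = 5) in WT mice and 208 CPM ± 57.1 (SD, n = 4) under the FcγRIIB-/- label, which is 1.14 on the log2 scale (standard error 0.22, edgeR adjusted p = 0.00394). *Cox8b*, likewise a muscle form, was at 1.06 (edgeR adjusted p = 0.0046). The form of subunit 6a used in other tissues, *Cox6a1*, did not pass (0.22, edgeR adjusted p = 0.0514), whereas *Cox8a* (0.31, edgeR adjusted p = 0.0329) and *Cox7a2* (0.33, edgeR adjusted p = 0.00591), the counterparts of muscle forms in other tissues, passed as higher. In complex I, *Ndufa5*, an accessory subunit of the peripheral arm, led at 1.11 (standard error 0.15, edgeR adjusted p = 7.41e-04), followed by *Ndufa13* at 0.86 (edgeR adjusted p = 0.00121), while *Ndufs1*, the largest iron-sulphur subunit, did not pass, with means of 146 and 145 CPM. Complex III was led by *Uqcrq* at 0.73 (edgeR adjusted p = 0.00231) and *Uqcrb* at 0.71 (edgeR adjusted p = 9.33e-04), and complex V by *Atp5e* at 0.76 (edgeR adjusted p = 0.00263) and *Atp5k* at 0.75 (edgeR adjusted p = 0.00268). *Atp5a1* and *Atp5b*, the subunits that form the catalytic head, did not pass, at 0.14 (edgeR adjusted p = 0.32) and 0.23 (edgeR adjusted p = 0.111).

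**Figure D4:**
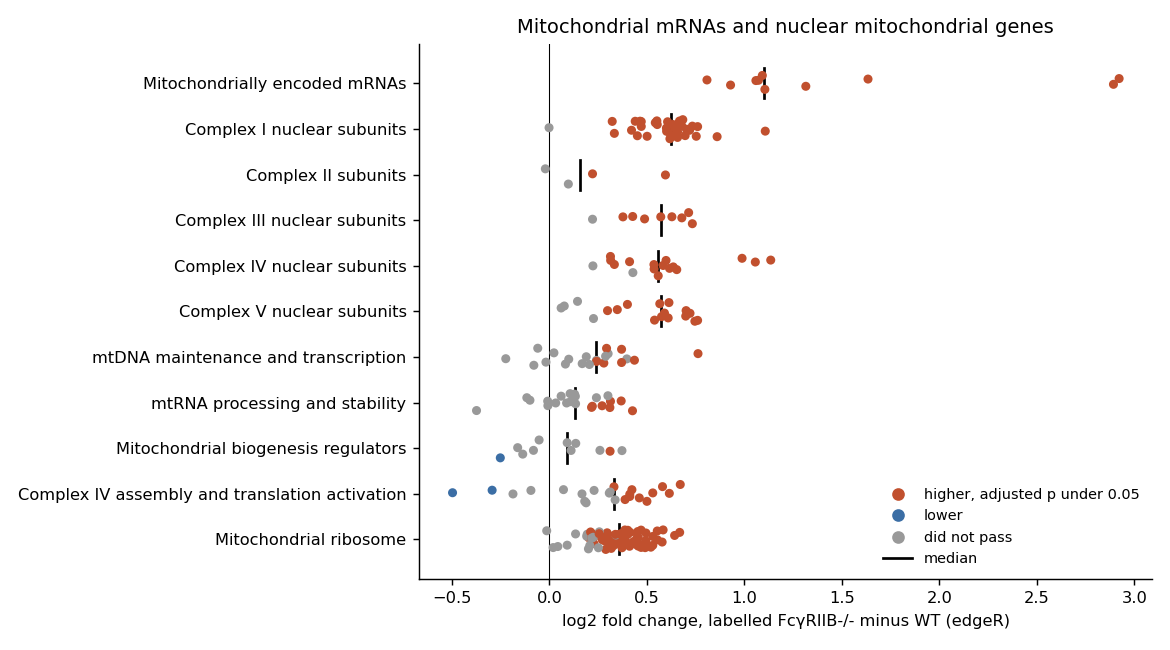
log2 fold change from edgeR, libraries labelled FcγRIIB-/- minus WT, for the 10 mitochondrial mRNAs and for 10 lists of nuclear mitochondrial genes, with 1 point per tested gene, colour by call at an adjusted p of 0.05 and a bar at each median. The mitochondrial mRNAs (median 1.10) lie to the right of the nuclear subunits (median 0.59), and the lists for mitochondrial DNA and RNA handling lie nearer to 0.

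Genes of the mitochondrial ribosome were mostly higher, and a smaller share of the genes that maintain, transcribe and process mitochondrial DNA and RNA was. These counts stand beside 14.0% of all tested genes higher and 19.3% lower. Of 79 mitochondrial ribosomal protein genes, 64 passed as higher and 0 as lower in edgeR's quasi-likelihood test (74 and 0 at an unadjusted p under 0.05, 68 and 0 in DESeq2), with a median log2 fold change of 0.36. *Mrpl51* (0.67, edgeR adjusted p = 0.00179) and *Mrps21* (0.64, edgeR adjusted p = 0.0017) led. Among 21 genes for the upkeep and transcription of mitochondrial DNA, 7 passed as higher and 0 as lower in the same test (10 higher and 1 lower at an unadjusted p under 0.05, 7 and 0 in DESeq2), with a median of 0.24. The largest were *Slc25a4*, the ADP/ATP carrier abundant in muscle (0.76, edgeR adjusted p = 0.00662), and *Ssbp1*, which coats single-stranded mitochondrial DNA (0.44, edgeR adjusted p = 0.0044).

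*Tfam*, which packages mitochondrial DNA and starts its transcription, was at 34.1, 33.4, 35.3, 34.1 and 32.3 CPM in WT and at 39.7, 32.4, 39.9 and 32.8 CPM under the FcγRIIB-/- label. The groups overlapped, and the difference was 0.10 on the log2 scale (standard error 0.08, edgeR adjusted p = 0.36). *Polrmt*, the mitochondrial RNA polymerase, had one of 0.17 (standard error 0.09, edgeR adjusted p = 0.165), again with overlap. Replicate 4 labelled FcγRIIB-/-, which had the most mitochondrial mRNA, was low in *Tfam* within its group and high in *Polrmt*.

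Of 22 genes for the processing and stability of mitochondrial RNA, 7 passed as higher and 0 as lower in edgeR's quasi-likelihood test (8 and 1 at an unadjusted p under 0.05, 7 and 0 in DESeq2), with a median of 0.13. *Slirp* (0.43, edgeR adjusted p = 0.00392), partner of the mRNA-stabilizing protein LRPPRC, and *Rexo2* (0.37, edgeR adjusted p = 0.00318), a small-RNA nuclease, led. *Lrpprc* itself (0.09, edgeR adjusted p = 0.379) and *Mtpap* (-0.01, edgeR adjusted p = 0.945), the mitochondrial poly(A) polymerase, did not pass. Of 11 regulators of mitochondrial biogenesis, *Sirt3* passed as higher (0.31, edgeR adjusted p = 0.0252) and *Pprc1* as lower (-0.25, edgeR adjusted p = 0.0336), and *Ppargc1a*, the best known of them, did not pass (0.09, edgeR adjusted p = 0.584). Of 23 tested genes for the assembly of complex IV and the translation of its subunits, 11 were higher, led by the copper chaperone *Cox17* (0.67, edgeR adjusted p = 0.00154) and *Sco2* (0.61, edgeR adjusted p = 0.0155), and 2 were lower. These 2 were *Taco1*, an activator of the translation of COX1 (-0.50, edgeR adjusted p = 0.0313), and *Coa5* (-0.29, edgeR adjusted p = 0.00666).

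Transcript length moved with the calls on nuclear genes. Outside the mitochondrial lists, 34.6% of 697 tested protein-coding genes whose longest transcript is under 1000 bases passed as higher, against 12.3% of 14067 longer ones. Among the nuclear oxidative phosphorylation subunits the shares were 91.8% of 49 short genes (median log2 fold change 0.62) and 82.9% of 35 longer ones (median 0.47). The part of transcript length in these differences was not tested.

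Skeletal muscle markers were higher in the same libraries, where 14.0% of all tested genes passed as higher and 19.3% as lower. Of 13 markers, 7 passed as higher and 0 as lower in edgeR's quasi-likelihood test (11 and 0 at an unadjusted p under 0.05, 10 and 0 in DESeq2), with a median log2 fold change of 0.88, and none was at 0 counts in all libraries. Their summed level was between 8890 and 20900 CPM in WT and between 21700 and 37900 CPM under the FcγRIIB-/- label. The 6 that did not pass were *Acta1* (0.80, edgeR adjusted p = 0.051), *Atp2a1*, *Casq1*, *Myh1*, *Myh2* and *Myh4*, and in each the groups overlapped. *Ckm*, muscle creatine kinase, was at 2030, 867, 1380, 1930 and 1730 CPM in WT and at 3850, 2250, 2140 and 4290 CPM under the FcγRIIB-/- label, which is 0.98 on the log2 scale (standard error 0.28, edgeR adjusted p = 0.0214). WT replicate 2 was lowest both in the muscle sum and in the sum of the 10 mitochondrial mRNAs. WT replicate 3 lay close to it in the mitochondrial sum (33765 against 33098 CPM) but not in the muscle sum (14400 against 8890 CPM). Under the FcγRIIB-/- label the order of the mice differed between the sums. Replicates 1 to 4 had muscle sums of 37900, 21700, 22600 and 35400 CPM, and mitochondrial sums of 68397, 83587, 65390 and 123606 CPM. The part of muscle content in the mitochondrial difference was not tested.

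Markers of some other cell types differed between the groups as well, where 14.0% of all tested genes were higher and 19.3% lower. All 6 erythroid markers found in the table and all 9 neutrophil and marrow markers were lower in edgeR's quasi-likelihood test, with summed levels of 1600 to 1920 and 1180 to 3530 CPM in WT against 92.8 to 419 and 144 to 432 CPM under the FcγRIIB-/- label. Of 8 tested markers of keratinized epithelium, 6 were lower and 1 higher, with sums between 5460 and 19800 CPM and between 4320 and 5420 CPM. Slow and cardiac muscle markers summed to 15.2 to 33.3 CPM in WT and 38.7 to 58.3 CPM in the other group, with 6 of 9 higher. Bone markers, which define the labelled tissue, summed to 54300 to 77800 CPM and 51100 to 62300 CPM, so the groups overlapped. Of the 9 bone markers 3 were lower, and the median log2 fold change of the 9 was 0.06. Brown adipocyte markers summed to 119 to 175 CPM in WT and 244 to 325 CPM in the other group. Among them, *Ucp1* was near 0 (at most 0.156 CPM) and the 2 called higher, *Cox7a1* and *Cox8b*, also belong to the complex IV list. Adipocyte markers had 1 higher (*Fabp4*) and 1 lower (*Adipoq*) of 4 tested, with sums of 50.1 to 90 and 117 to 167 CPM. Salivary gland markers summed to 16.5 to 20.5 CPM in WT and 21.2 to 101 CPM in the other group, with replicate 4 labelled FcγRIIB-/- highest, 1 of 3 tested higher and *Smr2* at 0 in every library. The part of these cell types in the mitochondrial difference was not tested.

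**Figure D5:**
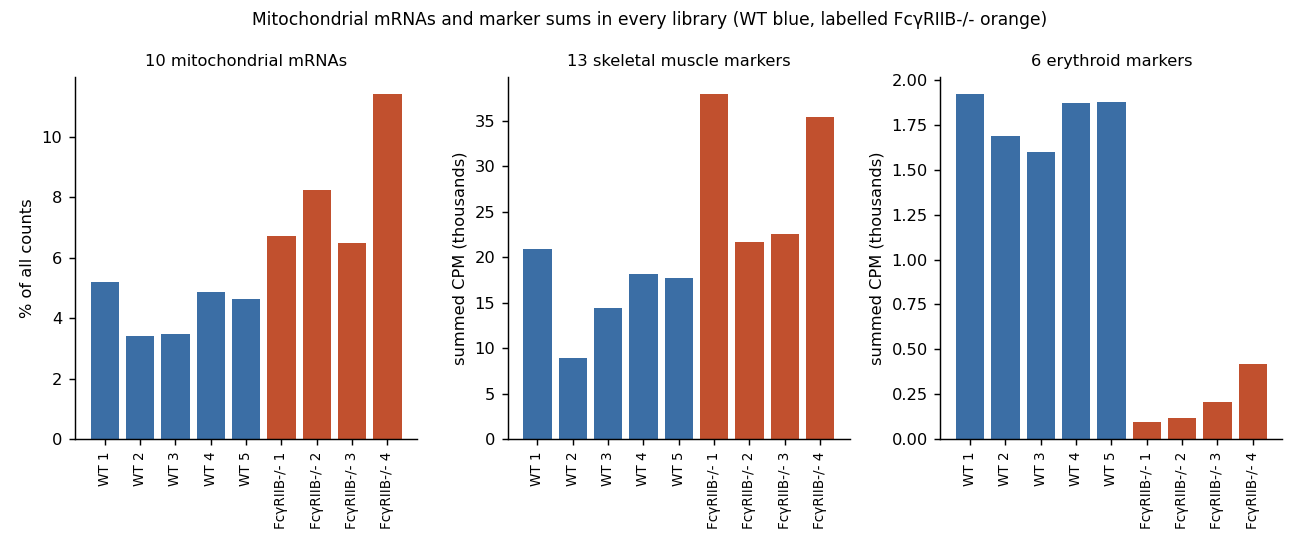
Share of the 10 mitochondrial mRNAs in all counts (left, %), and summed CPM of 13 skeletal muscle markers (middle) and 6 erythroid markers (right), 1 bar per library with WT in blue and libraries labelled FcγRIIB-/- in orange. The mitochondrial share and the muscle sum are higher in all 4 libraries labelled FcγRIIB-/- than in all WT libraries, and the erythroid sum is lower.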

How the data were processed

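Poly(A) RNA from mandibles of 9 mice was sequenced. Per the labels and the paper's methods, the authors used Trim Galore for trimming and HISAT 02.1.0 for mapping to mm10, and deposited raw counts per gene from featureCounts. Annotation, strand setting and the treatment of multi-mapping reads are not given in the sources used here. The table holds 1 further column of per-sample values, which was not used. Groups and replicate numbers come from the sample titles.

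Counts were analysed in R 4.3.3 with edgeR 4.0.16: filterByExpr (minimum count 10), TMM, the quasi-likelihood test (genotype only), and Benjamini-Hochberg adjusted p at 0.05 over 16329 genes. A standard error was obtained by dividing the size of the log2 fold change by the square root of F. log2 CPM used a prior count of 2. DESeq2 1.42.0 was an alternative. The edgeR step was tested on simulated counts. Depth limits genes with few counts, and p-values weigh the group difference against the spread between these mice.

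A genome was not given, so nuclear copies were looked for in GENCODE M21 transcripts only, with exact windows and BLAST 2.17.0 (Python 3.11.15), and windows with mismatches were not counted. RefSeq (GRCm38.p6) gave the same coordinates for all 15 mitochondrial genes. The members and lists were chosen with earlier results of these data known. Named genes are all members, up to 2 called genes per direction with the largest change in each nuclear list, 5 fixed genes (*Tfam*, *Polrmt*, *Lrpprc*, *Mtpap*, *Ppargc1a*), the genes with the most similar profiles, nuclear copies and *Fcgr2b*. Nuclear subunits that did not pass, *Cox8a*, *Cox7a2* and markers were named after their values were seen.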

Additional observations from a re-analysis of the deposited data

Results flagged for a closer look

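Within groups of 4 or 5 libraries, a gap test at Dixon's 95% limit was applied to 28 groups of values, of which about 1 in 20 would be marked by chance. It marked 2. *COX3* in WT replicate 4 was at 4.15 log2 CPM, the highest of 5 WT libraries, with a gap to the next that was 0.742 of the whole range. *ND6* in WT replicate 2 was at 5.32 log2 CPM, the lowest of 5 WT libraries, with a gap of 0.881 of the range. The uneven values of *ATP6*, *COX2* and *COX3* among the libraries labelled FcγRIIB-/- did not pass this limit.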

How the results depend on the processing

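The number of mitochondrial mRNAs called higher was between 9 and 10 with each mouse left out in turn, with 0 called lower (10 higher at an unadjusted p under 0.05 and in DESeq2, none lower), and *COX3* was the 1 that did not pass. Its log2 fold change was between 0.94 and 3.94 in these fits. In DESeq2's Wald test, with DESeq2 size factors, without a filter, with library totals alone and with mitochondrial rows left out of the library sizes (chosen after seeing the data), all 10 passed. The 4 pairs of mice sharing a number had correlations of their deviations between -0.114 and 0.097, so the replicate block is not a pairing. With it, 9 of the 10 passed (all but *COX3*, at 1.87), and 1594 genes were higher and 2410 lower over the whole table, against 2289 and 3144 without it. With library totals alone, 1309 genes were higher and 3781 lower, and 127 nuclear mitochondrial genes were higher and 6 lower, against 164 higher and 3 lower of 240 tested with TMM. With a log2 fold change of at least 1 required, 8 of the 10 passed, 181 genes were higher and 1069 lower, and 3 nuclear mitochondrial genes were higher and 0 lower. Leave-one-out fits gave between 1781 and 2292 higher and between 2521 and 2771 lower genes, and between 139 and 165 higher and between 1 and 3 lower nuclear mitochondrial genes. Mean summed CPM of the 10 mRNAs was 42200 in WT (40200 to 44500 with 1 mouse left out) and 85200 in the other group (72500 to 91900). With windows of 50 bases, 37.8% of windows of the 10 had a nuclear copy, against 34.6% at 75. The cause of these shifts was not tested. Low counts limit *ATP8* and *ND4L*.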
